A study of Arabidopsis thaliana with 35 samples.

Results

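The genes described here are the 73 nuclear genes, of 18622 in the RNA table, whose averaged RNA level was low after 1 d of cold and back near the level without cold after 40 d. For each gene and group, r is the log2 ratio of the group's averaged normalised read count to that without cold, with 1 added to both. Members have r at or under -1.5 after 1 d of cold and r over -0.5 after 40 d, which 0.392% of the nuclear genes met, while 451 genes (2.42%) met the limit at 1 d alone. The members were chosen by their averages without cold, at 1 d and at 40 d, so their values in those groups are given as a description and are not tested.

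The study followed vernalization, the process by which long cold makes a plant competent to flower, in whole seedlings of Arabidopsis thaliana. All groups were the ecotype Col-0 carrying a functional FRI allele, kept at 22 °C with 16 h of light and 8 h of dark as the normal condition. RNA libraries, 2 for each group, came from seedlings that had seen no cold (NV), from 5 lengths of cold treatment (1 h, 1 d, 10 d, 20 d, 40 d), and from seedlings moved back to the normal condition for 10 d once 40 d of cold were over (T10). Peaks of H3K4me3, H3K36me3 and H3K27me3, histone marks mapped by ChIP-seq, were available for NV, 40 d and T10, again 2 replicates each. The temperature of the cold, the age of the seedlings and the hour of harvest are not given in the sources used here. NV is the only group without any cold, so cold and age cannot be told apart in a difference from NV. Age may also differ among the cold groups and T10. In comparisons between them it cannot be told apart from the length of cold or the return. The labels number the replicates without saying whether they came from separate plantings, and p-values measure only the spread between these libraries, which may be technical.

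Cold slows enzymes and stiffens membranes, and plants answer within hours by changing a large share of their transcripts. Heat-shock proteins are chaperones that refold or hold damaged proteins, and their genes are switched on by heat shock factors. Receptor-like kinases and the transcription factors behind them report microbes and damage at the cell surface, and xyloglucan-modifying enzymes loosen the cell wall while cells grow. A low RNA level in whole seedlings can come from fewer cells of a type or from less RNA per cell, which cannot be told apart in bulk samples.

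The table holds averages of 2 libraries, which were split into the whole reads of a deeper and a shallower library per group, and pairs of values below give the deeper library first. Reads in split genes ran from 2.38 M (shallower T10) to 19.9 M (deeper 40 d). At NV and 1 h the libraries paired across the groups. Across all genes, which are not independent replicates, the correlation of the deeper NV library was 0.973 with the shallower library of 1 h and 0.952 with its own partner. An exchange of libraries between these groups, or a difference in the hour of harvest, was not tested. An exchange would change the NV averages behind the rule and each comparison with 1 h. Summed over 27 light-harvesting and Rubisco genes, the level was 32444 and 17833 in the NV libraries and 17825 and 35552 in the 1 h libraries. The 4 shoot markers summed to between 3286 and 9939 in every library, but single markers moved in opposite directions. At NV, 10 d and 40 d the averages were 1573, 4164 and 5601 for CAB2 and 561, 9.48 and 47.4 for CA1. In the same groups LHCB2.1 was at 770, 548 and 636 and RBCS1A at 2573, 2334 and 3152. The 4 root markers summed to 33.6 and 26.2 at NV, 56.9 and 50.04 at 1 d and 1.36 and 1.68 at 40 d. The part of these differences in the values of the members was not tested.

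Among the members the same split was wider than among other genes. The NV libraries lay 2-fold or more apart in 23 of 73 members (31.5%) and in 13.4% of all nuclear genes, and the 1 h libraries in 32 members (43.8%) against 24.1%. The deeper library was the higher one in 49 members at NV (67.1%), against 52.5% of all nuclear genes. Of the 378 genes that met the limit at 1 d but not that at 40 d, 81.5% had the deeper NV library higher. The lean at NV was thus not particular to the members. The shallower library was the higher one in 51 members at 1 h. At 40 d the deeper library was the higher one in 57 members, and 12 (16.4%) were 2-fold or more apart, against 5.87% of all nuclear genes. For the direction at 1 h and 40 d the shares of all nuclear genes were not counted. The rule used the averages at NV and 40 d, so the splits in these groups are not independent of membership. At 1 d 2 members (2.74%) were that far apart, against 3.27% of all nuclear genes.

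**Figure D1:**
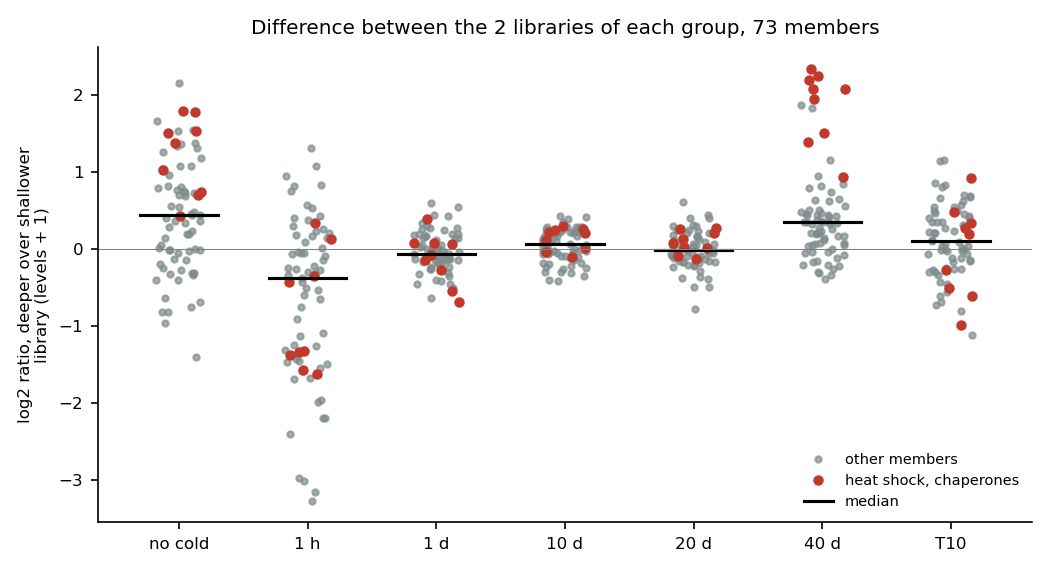
Log2 ratio of the deeper to the shallower library (normalised read counts with 1 added) for each of the 73 members in each of the 7 groups; bars are medians, and red points are the heat-shock and chaperone members. Members spread widely at NV and 1 h, in opposite directions, and the 9 red points all lie above 0 at 40 d.

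Membership rests on single libraries for many genes. With the shallower NV library alone 37 of the 73 still met the rule, with the deeper NV library alone 36, and with the shallower 40 d library alone 51. With the 6 libraries of NV, 1 d and 40 d left out in turn, 14 members met the rule each time. These 14 were PERK15, AR781, RBP-DR1, CBP60G, XTH6, SAUR50 (AT4G34760) and the genes AT1G63750, AT1G66090, AT2G34620, AT3G04210, AT3G23080, AT4G17250, AT5G16030 and AT5G22690. None of the 9 heat-shock and chaperone members, the 5 photosynthesis and plastid members or the 5 members grouped as transcription factors was among them.

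The members lay on all 5 nuclear chromosomes (20, 14, 11, 13 and 15 members on chromosomes 1 to 5), and no 2 were neighbours among the measured genes. Both 1 d libraries lay under both NV libraries in all 73, an order found in 31.5% of the genes tested. Both 40 d libraries lay over both 1 d libraries in 71, against 38.5%. The rule used the averages of these groups, so both orders were largely set in advance and are given as a description. Members just inside the limit at 1 d were AT2G32090 (r -1.52, averages 12.6 at NV and 3.76 at 1 d) and AT2G41090 (r -1.52, 8.60 and 2.35). Just outside were AT1G14430 (r -1.499) and the ubiquitin ligase gene PUB24 (r -1.49). At the 40 d limit, TIR and AT5G13400 lay just inside, both with r -0.47, and the mitochondrial carrier gene DIC2 (r -0.50) and the calmodulin-like gene TCH2 (r -0.50) just outside.

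Between 1 d and 40 d, most members were still low at 10 d and 20 d. The median r of the members was -0.15 at 1 h, -1.74 at 1 d, -1.24 at 10 d, -0.71 at 20 d, -0.13 at 40 d and -0.01 at T10, while the median over all nuclear genes stayed between -0.03 and 0.01. In 43 members the average was higher at each step from 1 d through 10 d and 20 d to 40 d. The rule set both ends of this course, which favoured such a rise in advance. By 10 d r was over -0.5 in 11 members and by 20 d in 22, and 50 members were still at or under -0.5 at both times. It was at or under -1.5 in 27 members at 10 d, against 3.71% of nuclear genes, and in 15 at 20 d, against 3.59%. At 40 d, which the rule used, r was 1 or more in 3 members, against 5.89% of nuclear genes, and these were HSP101, MBF1C and ROF2. The level at 10 d was no higher than at 1 d in 16 members, 8 of them of the heat-shock group. For the counts of 43, 11, 22, 50 and 16 members, the shares of all nuclear genes were not counted.

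**Figure D2:**
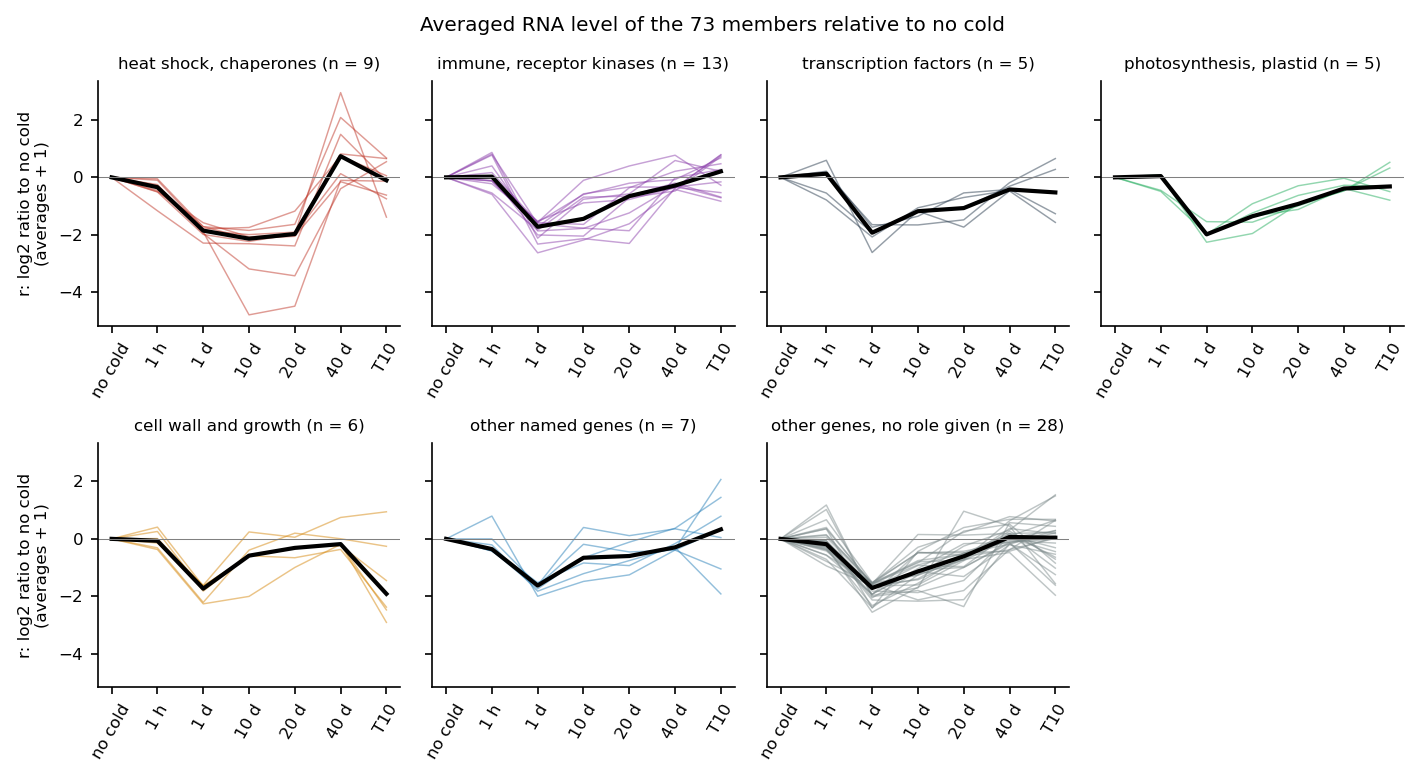
r (log2 ratio of averages to NV, 1 added) of every member over the 7 groups, in panels by role; thin lines are genes and the black line is the panel's median. The heat-shock median stays low through 20 d and lies above 0 at 40 d, where 6 of the 9 genes do, and the cell wall median is lowest at T10.

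The 4 comparisons that leave out NV, 1 d and 40 d were tested with limma over 18766 genes. After 10 d of cold against 1 h, 27 members were lower and 0 higher, while 15.0% of all genes were lower and 11.7% higher. Between 10 d and 20 d, 2 members were higher and 0 lower, against 0.650% and 0.400% of all genes. At T10 against 20 d, 27 were higher and 3 lower, against 13.5% and 11.6%. At T10 against 1 h, 14 were higher and 7 lower, against 13.8% and 13.1%. The median log2 change of the members in these comparisons was -1.16, 0.47, 0.86 and 0.27, and that of all genes between -0.02 and 0.00. Without the deeper 1 h library the median at T10 against 1 h was -0.10. T10 against 20 d shares its libraries with the comparisons on either side of it, so these counts are not independent of each other. It also joins the cold after 20 d with the return, which cannot be told apart in it. Under the rule, members low at 20 d had to be back by 40 d, which favoured a higher level at T10.

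The count between 10 d and 20 d moved with the fit. It was 25 higher with library quality weights and 30 higher and 2 lower when only the 4 libraries of these 2 groups were fitted. At an unadjusted p under 0.05, 17 members passed in that comparison and 39 at 10 d against 1 h. The shares of all genes under these fits and at this limit were not counted, so these counts have no background. Of the 27 members lower at 10 d, 14 kept their call with any 1 of the 4 libraries left out. The same held for 13 of the 27 higher and 0 of the 3 lower at T10 against 20 d, and for 6 of the 14 higher and 0 of the 7 lower at T10 against 1 h.

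Most of the 9 heat-shock and chaperone members were as low at 10 d and 20 d as at 1 d, or lower. The 9 had a median r of -2.13 at 10 d and -1.97 at 20 d, lower than their -1.85 at 1 d, and 8 of 9 stood at or under the 1 d level at 10 d and 6 of 9 at 20 d. HSP70 (AT3G12580), a cytosolic chaperone, was at 97.6 and 47.2 without cold and at 34.2 and 87.2 after 1 h. It was at 18.2 and 19.2 after 1 d, 1.63 and 1.70 after 10 d, 2.58 and 1.98 after 20 d, 109 and 25.1 after 40 d and 51.8 and 79.9 at T10. Both libraries of 10 d and of 20 d were far below every other library. HSP70 was lower at 10 d than at 1 h (log2 change -5.002, SE 0.90, limma adjusted p 0.00179) and higher at T10 than at 20 d (4.76, SE 0.85, adjusted p 0.00160), and both calls were kept with any 1 library left out.

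HSP90.1 (AT5G52640), the heat-inducible cytosolic HSP90, was at 16.1 and 9.23 without cold, 1.70 and 3.35 at 1 d, 0.559 and 0.438 at 10 d, and 0.358 and 0.180 at 20 d. At 40 d its libraries stood at 16.3 and 2.41, and at T10 at 17.004 and 20.8. It was lower at 10 d than at 1 h (log2 change -4.25, SE 1.31, adjusted p 0.0308) and higher at T10 than at 20 d (6.04, SE 1.68, adjusted p 0.0202). The first call was lost without either 10 d library (highest adjusted p 0.159) and the second without the deeper T10 or either 20 d library (0.140). SGT1A (AT4G23570), a co-chaperone of HSP90 that also acts in immune receptor assembly, was at 20.8 and 18.9 at 1 h, 6.20 and 5.16 at 10 d, 9.17 and 8.63 at 20 d, and 24.4 and 20.1 at T10. Its fall at 10 d was kept with any library left out (log2 change -1.82, SE 0.34, adjusted p 0.00208), and its rise at T10 against 20 d (1.37, SE 0.34, adjusted p 0.0108) was lost without the deeper T10 or either 20 d library (highest adjusted p 0.183).

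At 40 d the members of this group differed widely between the libraries. HSP101 (AT1G74310), the disaggregase needed for acquired heat tolerance, was at 164 in the deeper and 33.6 in the shallower 40 d library, both above the 18.2 and 5.64 without cold. MBF1C, a transcriptional coactivator of the heat response, was at 28.8 and 6.70 against 5.84 and 0.999 without cold. The immunophilin ROF2 (AT5G48570) was at 26.7 and 5.04 against 7.61 and 2.32, and the HSP70-HSP90 organising co-chaperone Hop3 at 10.8 and 1.78 against 3.74 and 2.53. SR45a, a splicing factor of the serine/arginine-rich kind, was at 32.8 and 11.9 against 30.5 and 10.1 without cold. TIN1, named as tunicamycin induced 1, was at 5.75 and 1.36 against 6.86 and 1.26. In all 9 the deeper 40 d library was the higher one, by 1.94- to 6.77-fold, and in all 9 the deeper NV library was higher too, by 1.48- to 5.84-fold. With the shallower 40 d library alone, 4 of the 9 still met the rule. At T10, 4 of 9 stood above NV, and HSP101 was back at 5.47 and 2.43.

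In the wider heat-shock list of 39 measured genes, 3 are members. Against 20 d, 12 of the 39 were higher and 3 lower at T10, and at 10 d against 1 h 3 were higher and 6 lower, with a median log2 change of -0.15. Its summed level was 1602 and 1835 at NV, 2731 and 2792 at 1 d and 3439 and 2328 at 40 d. HSC70-1 alone made up 841 and 827 of the sum at NV and 1604 and 1626 at 1 d. Single genes of the list moved both ways at 1 d. Against NV, 7 of the 39 were called higher and 4 lower (median log2 change 0.02), in groups that chose the 3 members. In the deeper 40 d library 29 of the 39 were higher than in the shallower, 13 of them 2-fold or more, against 568 of 18619 nuclear genes.

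**Figure D3:**
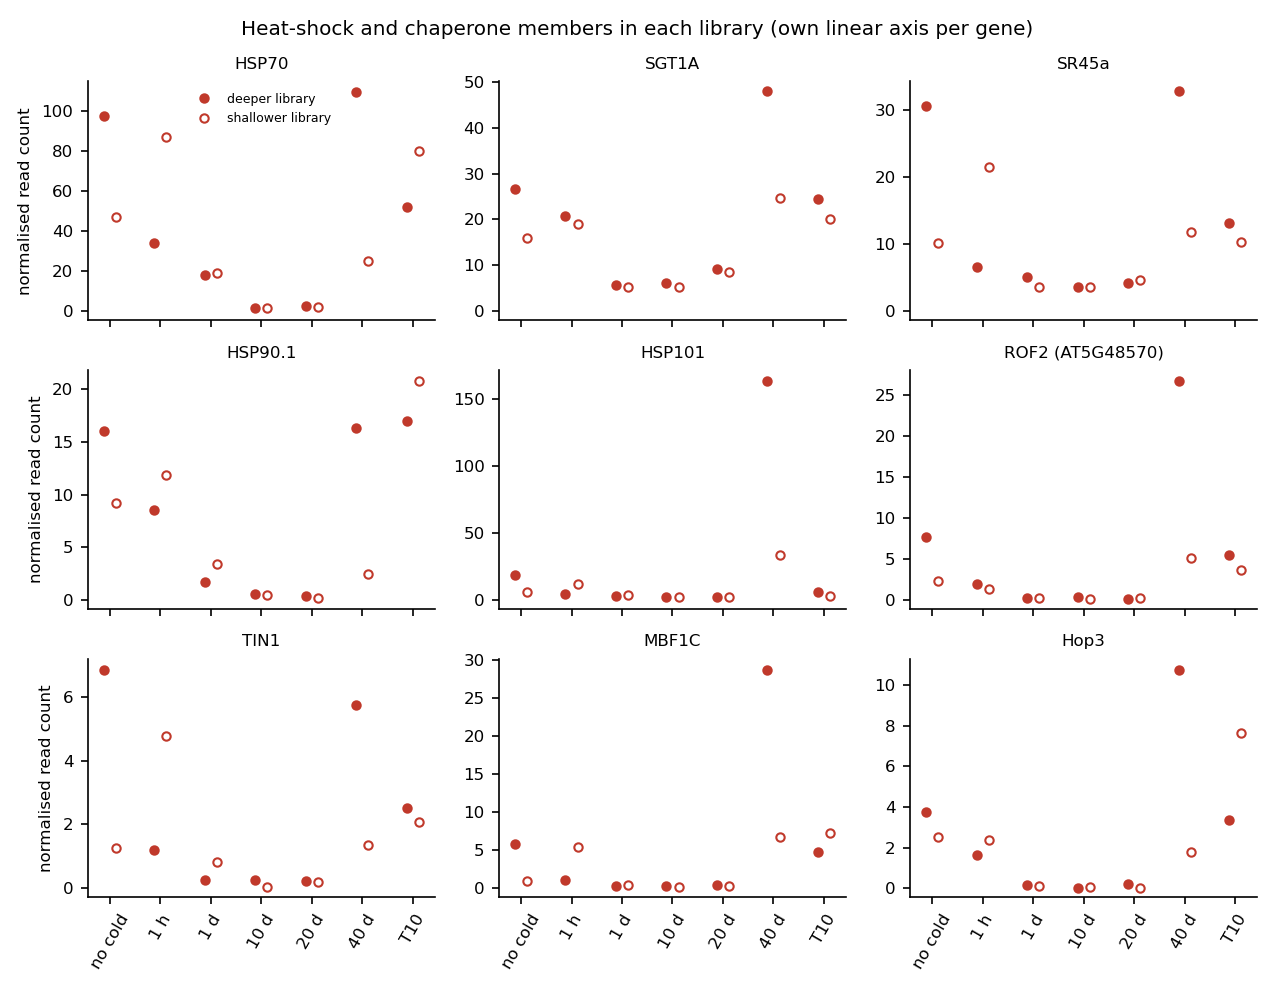
Normalised read counts of the 9 heat-shock and chaperone members in each library, on a linear axis of its own per gene; filled points are the deeper and open points the shallower library of a group. All 9 are lowest at 10 d or 20 d in at least 1 library, and at 40 d the filled point lies far above the open one.

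Among the 13 members of immune signalling and receptor kinases, 8 were lower at 10 d than at 1 h and 0 higher, and 5 were higher at T10 than at 20 d and 0 lower. WRKY33 (AT2G38470), a transcription factor of defence against necrotrophic fungi, was at 22.5 and 28.2 without cold, 42.6 and 45.5 at 1 h, 4.05 and 4.49 at 1 d, 5.49 and 4.54 at 10 d, 4.68 and 4.03 at 20 d, 21.6 and 17.1 at 40 d and 40.1 and 48.2 at T10. Its libraries at 1 d, 10 d and 20 d all lay under 6 and the others all over 17. It was lower at 10 d than at 1 h (log2 change -3.14, SE 0.21, adjusted p 2.12e-06) and higher at T10 than at 20 d (3.30, SE 0.22, adjusted p 1.69e-06), in every version with a library left out. BCS1 (AT3G50930), also named OM66 after the outer mitochondrial membrane, followed the same course at lower counts. It was at 6.89 and 6.399 at 1 h, 0.254 and 0.309 at 10 d, 0.0511 and 0.361 at 20 d and 4.05 and 4.51 at T10. Its changes were -4.52 (SE 0.62, adjusted p 0.000273) and 4.82 (SE 0.80, adjusted p 0.00104), both kept with any library left out.

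TIR (AT1G72930), a small protein with a Toll/interleukin-1 receptor domain, came back in steps. It was at 1.65 and 1.77 at 1 d, 1.60 and 1.68 at 10 d, 5.49 and 5.83 at 20 d, 6.52 and 7.13 at 40 d and 17.5 and 16.6 at T10, with 9.39 and 10.4 without cold. The groups from 10 d on did not overlap. The rise from 10 d to 20 d (log2 change 1.78, SE 0.23, adjusted p 0.00462) was lost without any library but the shallower 20 d one (highest adjusted p 0.124). The rise from 20 d to T10 (1.61, SE 0.18, adjusted p 6.51e-05) was kept throughout. CNGC4 (AT5G54250), a cyclic nucleotide-gated cation channel, was at 1.18 and 1.88 at 1 d, 4.60 and 4.87 at 20 d and 13.9 and 15.3 at T10, over the 8.16 and 7.88 without cold. It was higher at T10 than at 20 d (1.59, SE 0.22, adjusted p 0.000267) and than at 1 h (1.46, SE 0.22, adjusted p 0.000690), and both calls were kept with any library left out.

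CBP60G (AT5G26920), a regulator of salicylic acid synthesis, was at 13.97 and 9.17 without cold, 11.2 and 32.7 at 1 h, 1.75 and 2.05 at 1 d, 7.14 and 5.70 at 10 d, and 18.9 and 16.8 at 40 d. Its 1 d libraries lay under all others, and its 40 d libraries over both NV libraries. The members CRK42, CRK40 and EMB1290 are cysteine-rich receptor-like kinases (CRKs), cell-surface kinases with extracellular cysteine motifs. CRK42 had the lowest r of all members at 1 d (-2.63), at 1.35 and 0.914 against 15.3 and 9.05 without cold, and was still at 3.35 and 3.25 at 20 d. CRK40 was the first of the 3 to return, at 6.66 and 7.42 at 1 d, 19.1 and 23.1 at 10 d and 42.4 and 36.6 at 40 d, the last over both NV libraries (19.5 and 26.1). EMB1290, also named CRK17, was at 2.03 and 1.69 at 1 d and at 13.5 and 11.4 at T10. Among the 31 measured genes of the CRK list, 17 were lower and 0 higher at 10 d than at 1 h, and 8 were higher and 1 lower at T10 than at 20 d. In that list the median log2 change was -1.79 at 10 d against 1 h and 0.53 at T10 against 20 d, and that of all genes was 0.00 in both. At 40 d against NV, groups that the rule used, 3 genes of the CRK list were called higher and 14 lower. The median log2 change there was -1.31, and that of all genes -0.002, so the list was mostly still low where its 3 members were back. How reads were shared between close copies in these families, or between PSAD-2, HSP70 or HSP90.1 and their paralogs, was not checked here.

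Of the 50 measured WRKY genes, of which WRKY33 alone is a member, 20 were lower and 6 higher at 10 d than at 1 h, and 8 higher and 2 lower at T10 than at 20 d. Of 25 salicylic acid and immunity genes, 17 were lower and 0 higher at 10 d than at 1 h, and 7 were higher and 1 lower at T10 than at 20 d. At T10 against 1 h, 0 of the 25 were higher and 13 lower. At 40 d against NV, 2 of the 25 were called higher and 12 lower (median log2 change -0.75). Of the WRKY genes, 7 were higher and 14 lower there (median -0.34). The shares of all genes called at 40 d against NV were not counted. The lists were chosen with earlier results of these data known and hold the members named with them.

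The 5 members grouped here as transcription factors stood below NV at 40 d on average, with r from -0.47 to -0.18, values the rule used. The regulators WRKY33, CBP60G and MBF1C were placed in other groups (r at 40 d -0.37, 0.59 and 2.08). MYC2 (AT1G32640), the master regulator of jasmonate responses, was at 26.9 and 18.1 without cold, 20.2 and 29.1 at 1 h, 7.21 and 5.79 at 1 d, 5.69 and 7.22 at 10 d, 8.71 and 6.13 at 20 d and 27.3 and 44.6 at T10. Its level was flat and low from 1 d to 20 d and overlapped between these groups. MYC2 was lower at 10 d than at 1 h (log2 change -1.88, SE 0.32, adjusted p 0.00113) and higher at T10 than at 20 d (2.15, SE 0.32, adjusted p 0.000517), with any library left out. Of 28 jasmonate genes, 16 were lower and 1 higher at 10 d than at 1 h and 10 were higher and 0 lower at T10 than at 20 d. At 40 d against NV, 3 of the 28 were called higher and 11 lower (median log2 change -0.94). PIF4 (AT2G43010), which promotes stem growth in shade and warmth, was at 15.4 and 15.7 without cold, 3.23 and 3.49 at 1 d, 7.54 and 6.25 at 20 d and 11.6 and 26.5 at T10. Its rise at T10 against 20 d (1.104, SE 0.32, adjusted p 0.0231) was kept only without the deeper T10 library.

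DREB26 (AT1G21910), an ERF-type factor, was at 16.0 and 12.1 without cold, 3.25 and 40.2 at 1 h, 1.25 and 1.66 at 1 d, 6.07 and 5.23 at 10 d and 3.27 and 3.79 at 20 d. The shallower 1 h library was the highest of all and the deeper among the lowest, and its T10 values (3.65 and 4.51) were low again. TCP11 (AT5G08330), listed also as CHE, a repressor of the clock gene CCA1, was at 55.5 and 25.8 without cold and 12.1 and 10.9 at 1 d. It was lower at 10 d (15.1 and 15.5) than at 1 h (25.9 and 68.8; log2 change -1.42, SE 0.40, adjusted p 0.0212), and lower at T10 (15.5 and 17.2) than at 1 h (-1.35, SE 0.45, adjusted p 0.0419). Both calls were kept only without the deeper 1 h library (highest adjusted p 0.107 and 0.316), and without the shallower 1 h library the changes were -0.76 and -0.70. The B-box factor BBX27 was at 3.18 and 2.66 at 1 d against 16.8 and 14.2 without cold, and at 9.63 and 12.5 at 40 d. Of 39 measured light signalling genes, among them PIF4 and BBX27, 18 were higher and 2 lower at 10 d than at 1 h, and neither of these members was called in that comparison.

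The 5 photosynthesis and plastid members all carried the NV split, with the deeper NV library higher in each, by 1.24- to 3.19-fold. LHCB4.2 (AT3G08940), a minor antenna protein of photosystem II, was at 1112 and 438 without cold, 411 and 1241 at 1 h, 203 and 177 at 1 d, 334 and 321 at 10 d, 493 and 509 at 20 d, 685 and 596 at 40 d and 689 and 556 at T10. PSAD-2 (AT1G03130), a stromal subunit of photosystem I, was at 207 and 64.9 without cold, 26.7 and 28.7 at 1 d, 36.3 and 32.5 at 10 d, 72.5 and 70.1 at 20 d, and 186 and 207 at T10. Both were lowest at 1 d, and their 10 d and 20 d libraries did not overlap. PSAD-2 was higher at T10 than at 20 d (log2 change 1.46, SE 0.48, adjusted p 0.0408), a call lost with any library left out (highest adjusted p 0.153). CLA1 (AT4G15560), the first enzyme of the plastid isoprenoid pathway, was at 318 and 252 without cold, 190 and 226 at 1 h, 95.1 and 99.3 at 1 d, 92.6 and 99.4 at 10 d, 138 and 147 at 20 d and 400 and 314 at T10. CLA1 was lower at 10 d than at 1 h (-1.12, SE 0.18, adjusted p 0.000971) and higher at T10 than at 20 d (1.30, SE 0.19, adjusted p 0.000380), with any library left out.

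Plastocyanin PETE1, which carries electrons to photosystem I, was at 69.7 and 32.5 without cold, 12.03 and 12.3 at 1 d and 54.1 and 45.9 at 40 d. AAE14, an enzyme of phylloquinone synthesis, was at 19.4 and 15.7 without cold and 4.15 and 3.27 at 1 d. The light-harvesting and Rubisco list holds 28 measured genes, of which 27 had library values. Of these, 14 were lower and 1 higher at 10 d than at 1 h (median log2 change -1.14). At T10 against 20 d, 8 were higher and 4 lower (median 0.06). Their 1 h libraries differed as described above.

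The 6 members of cell wall and growth had a median r of -0.58 at 10 d, -0.31 at 20 d and -1.91 at T10. In 2 of the 6 r was over -0.5 at 10 d, and in 4 at 20 d. XTH6 (AT5G65730), a xyloglucan endotransglucosylase/hydrolase, was at 43.3 and 31.4 without cold, 7.43 and 7.14 at 1 d, 27.8 and 28.7 at 10 d, 47.6 and 38.5 at 20 d and 30.4 and 31.7 at T10. Apart from 1 d, only the deeper 1 h library (17.2) lay below 27. XTH16 (AT3G23730), of the same family, was at 37.6 and 21.0 without cold, 5.73 and 4.90 at 1 d, 6.91 and 6.21 at 10 d, 13.3 and 15.1 at 20 d, 31.3 and 19.7 at 40 d, and 4.40 and 4.51 at T10. It was lower at T10 than at 1 h (log2 change -2.02, SE 0.57, adjusted p 0.0206) and than at 20 d (-1.67, SE 0.57, adjusted p 0.0478). The first call was lost without either T10 library (highest adjusted p 0.325) and the second without any 1 of its 4 libraries (0.438). Of 49 measured genes of the xyloglucan and expansin list, both members included, 27 were lower and 1 higher at T10 than at 1 h.

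EXL5 (AT2G17230), an EXORDIUM-like gene, was at 94.9 and 20.6 without cold, 14.7 and 139 at 1 h, 16.8 and 18.7 at 1 d, 52.1 and 50.1 at 40 d and 6.03 and 7.63 at T10. The shallower NV library lay just above the 1 d libraries, and the T10 libraries were the lowest of all. GATL6, a glycosyltransferase-like gene named here after its values were seen, was at 48.9 and 19.8 without cold, 11.1 and 9.64 at 1 d and 6.76 and 4.86 at T10. LNG2 (LONGIFOLIA2), which promotes lengthwise cell growth, went the other way. It was at 10.2 and 16.4 without cold, 3.15 and 4.21 at 1 d, 17.2 and 14.6 at 10 d, and 29.1 and 23.9 at T10. LNG2 was higher at T10 than at 1 h (1.197, SE 0.24, adjusted p 0.00390) and than at 20 d (0.97, SE 0.23, adjusted p 0.00941), though not without the deeper T10 library (highest adjusted p 0.104 and 0.192) nor, for the second, without either 20 d library.

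At T10 the members spread apart. Against NV, which the rule used, r was 1 or more in 4 members (5.48%, against 7.86% of nuclear genes) and -1 or less in 14 (19.2%, against 7.69%). In 28 it was within 0.5 of NV. The 4 high ones were ARD4, AT5G16030, CYP709B3 and AT4G13575, and in each both T10 libraries lay over all 12 others. ARD4 (AT5G43850), named for acireductone dioxygenase, an enzyme type of methionine salvage, was at 20.4 and 11.4 without cold, 4.30 and 3.82 at 1 d, 9.68 and 10.6 at 20 d, 11.9 and 12.6 at 40 d and 79.7 and 59.8 at T10. It was higher at T10 than at 1 h (log2 change 2.61, SE 0.27, adjusted p 5.70e-05) and than at 20 d (2.79, SE 0.26, adjusted p 1.86e-05).

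The cytochrome P450 gene CYP709B3 was at 9.43 and 17.5 without cold, 3.18 and 4.60 at 1 d, 11.3 and 13.4 at 20 d and 38.3 and 38.3 at T10 (change against 1 h 1.92, SE 0.29, adjusted p 0.000677). AT5G16030, with no name in the gene table, was at 11.3 and 14.4 without cold, 2.13 and 1.14 at 1 d and 46.5 and 31.6 at T10 (2.41, SE 0.26, adjusted p 8.30e-05). AT4G13575, also without a name, was at 7.92 and 9.20 without cold, 2.83 and 1.52 at 1 d and 28.1 and 23.8 at T10 (2.55, SE 0.32, adjusted p 0.000184). For all 4 genes the calls against 1 h and against 20 d were kept with any 1 library left out.

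**Figure D4:**
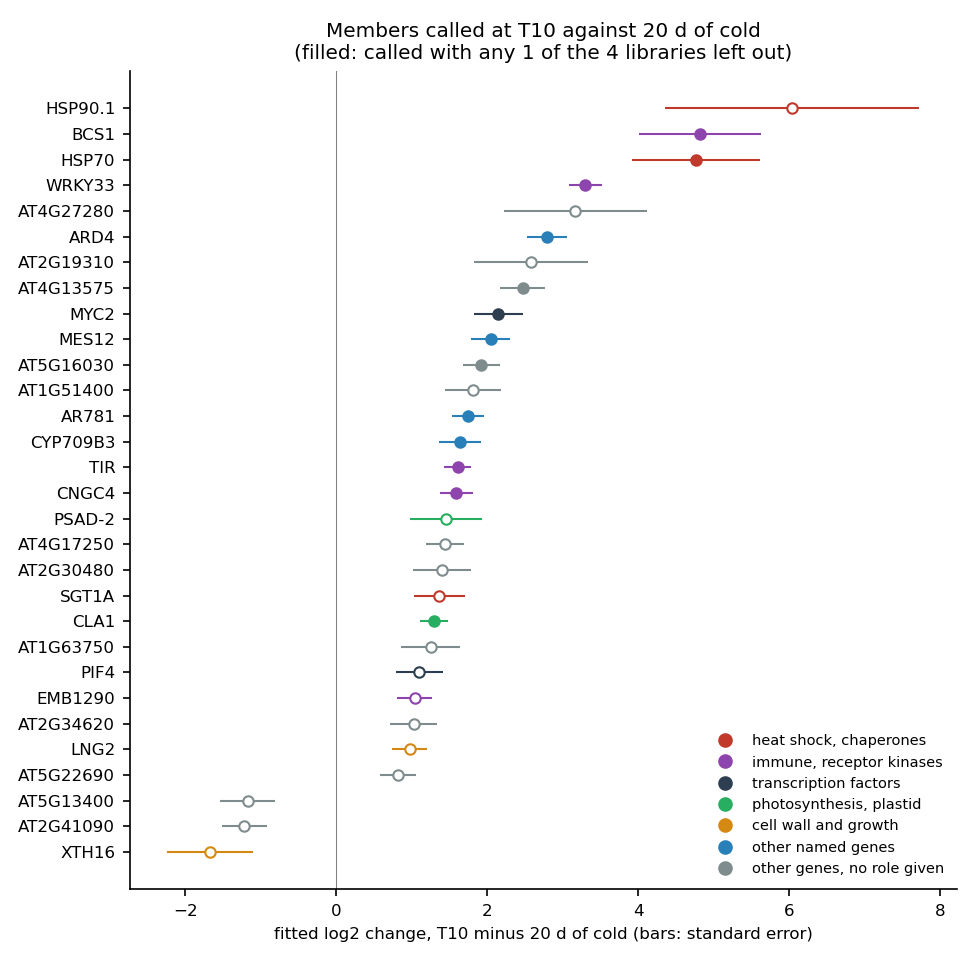
Fitted log2 change with standard error for the 30 members called at T10 against 20 d of cold, coloured by role; filled points kept the call with any 1 of the 4 libraries left out. The 27 higher members include 13 filled points, and the 3 lower members are all open.

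The remaining members include 28 to which no role was given here. Of these, 10 were lower and 0 higher at 10 d than at 1 h, and 10 were higher and 2 lower at T10 than at 20 d. AT3G04210 was at 8.89 and 14.9 without cold, 1.45 and 1.41 at 1 d, 7.90 and 9.18 at 10 d, and 17.4 and 22.0 at 40 d, where both libraries lay over NV. AT1G63750 was at 8.06 and 15.05 without cold, 1.00 and 1.27 at 1 d and 4.68 and 5.92 at 20 d. AT2G34620 was at 12.8 and 9.70, 1.45 and 1.44, and 6.67 and 7.43 in the same groups. In each of these 3 the 1 d libraries lay under all others.

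AT4G27280 was at 25.7 and 11.96 without cold, 9.07 and 78.5 at 1 h, 3.60 and 4.24 at 1 d, 3.14 and 2.59 at 20 d and 26.1 and 25.5 at T10. Its rise at T10 against 20 d (log2 change 3.17, SE 0.95, adjusted p 0.0281) was lost with any 1 library left out (highest adjusted p 0.160). AT2G41090 was the second member to rise from 10 d (3.63 and 5.13) to 20 d (8.99 and 12.1; 1.27, SE 0.24, adjusted p 0.0301), a call also lost with any library left out (0.394), and at T10 it was at 4.53 and 4.16. It was lower at T10 than at 20 d (-1.22, SE 0.29, adjusted p 0.00990) and than at 1 h (-1.70, SE 0.30, adjusted p 0.00151), both lost without the deeper T10 library (highest adjusted p 0.220 and 0.0979) and the first also without the shallower 20 d one. AT5G13400 was at 25.5 and 22.2 without cold, 6.38 and 7.84 at 1 d, 14.4 and 13.9 at 20 d and 7.13 and 3.64 at T10, lower than at 1 h (-1.74, SE 0.36, adjusted p 0.00428) except without the deeper T10 library (0.0704). Its lower level at T10 than at 20 d (-1.17, SE 0.36, adjusted p 0.0317) was lost without any library (0.155).

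Beside the members stand 378 nuclear genes that were as low at 1 d but still at or under -0.5 at 40 d. Their median average without cold was 17.97, and that of the members 12.2. Of the 378, 68.3% were lower at 10 d than at 1 h and 52.6% higher at T10 than at 20 d, and of the members 37.0% and 37.0%. At T10 their median r was -0.74, and that of the members -0.01. The difference between these sets was not tested, since the 40 d values divide them.

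The chromatin marks were not used by the rule. The rule does leave out genes with little RNA without cold. The lowest NV average of a member was 3.13, and the median was 12.2, against 6.11 for all nuclear genes. Shares of marked genes at a like RNA level were not counted. H3K4me3 sits at the starts of active genes, H3K36me3 over transcribed bodies, and H3K27me3 over genes held silent by Polycomb proteins. A gene was called marked in a library where the authors' peaks covered at least 50% of its body, or for H3K4me3 of 1000 bp. H3K4me3 marked 89.0% to 97.3% of the members in the 6 libraries, and 85.0% to 88.2% of all 18610 nuclear genes with a position. H3K36me3 marked 27.4% to 38.4% of the members, against 49.3% to 59.3%. H3K27me3 marked 1.37% of the members in each replicate 2, against 5.66% to 6.06% of all nuclear genes. In replicate 1 it marked 6.85% of the members at NV and 12.3% at 40 d and T10, against 7.21%, 9.73% and 9.24%. With 2 libraries per group no exact permutation test can go below p 0.333, so these shares were not tested.

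**Figure D5:**
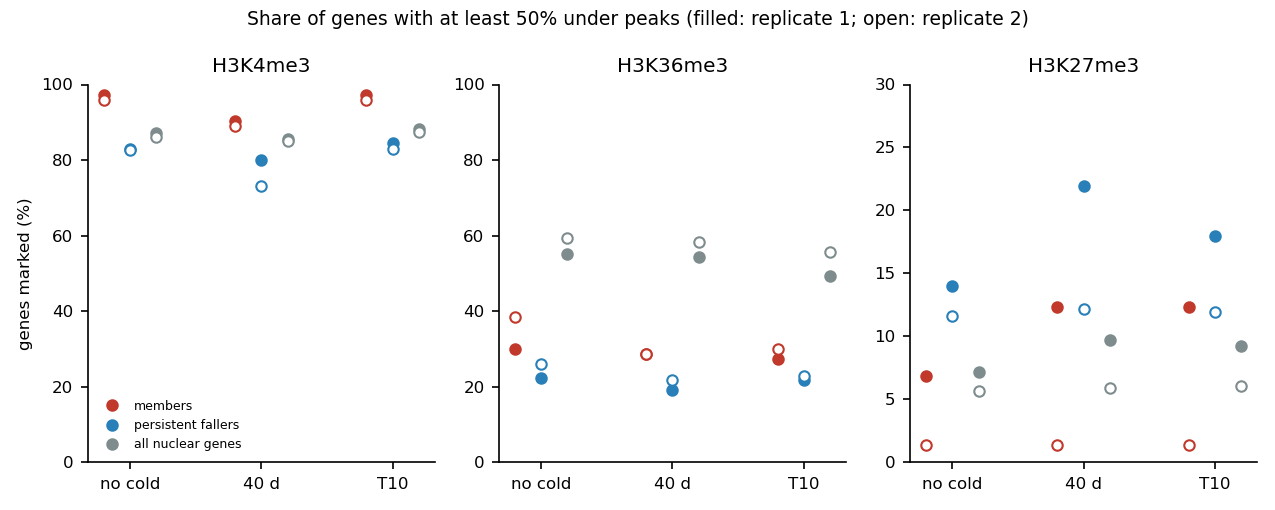
Share of genes marked (at least 50% under peaks) by H3K4me3, H3K36me3 and H3K27me3 at NV, 40 d and T10 for the 73 members, the 378 persistent fallers and all 18610 nuclear genes; filled points are replicate 1 and open points replicate 2. The vertical axis ends at 100% for H3K4me3 and H3K36me3 and at 30% for H3K27me3. Members lie above all genes for H3K4me3 and below them for H3K36me3.

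In 63 of 73 members (86.3%) H3K4me3 was called in all 6 libraries, against 82.0% of all nuclear genes. In 4 members (5.48%, against 1.76% of all nuclear genes and 6.61% of the persistent fallers) it was called in both NV libraries and in neither at 40 d. These were SAUR50, XTH16, AT5G03350 and AT5G12110, named after their values were seen. SAUR50 (AT4G34760), of the small auxin-upregulated RNA family, had 98.0% and 100% of the measured length under H3K4me3 peaks at NV, 0% at 40 d in both and 97.8% and 95.9% at T10, where its RNA was at 3.49 and 1.04. Its RNA at NV (9.27 and 6.58) and 40 d (6.72 and 6.45) entered the rule, so nothing is read from it beside the mark. Among the 77 measured auxin genes, with SAUR50 as the 1 member, 12 were higher and 18 lower at 10 d than at 1 h, and 10 higher and 13 lower at T10 than at 20 d. AT5G03350 and AT5G12110 also had the mark again in both T10 libraries. XTH16 had 100% in both at NV, 0% in both at 40 d, and 60.5% and 0% at T10, where its RNA was lowest.

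AT4G13575 was the single member with H3K27me3 called in all 6 libraries (54.1% to 100% of its body), and the single member never called for H3K4me3. H3K27me3 was called in replicate 1 alone for 9 other members, among them CRK42, XTH6 and CNGC4, at 3.42 to 6.596 M filtered tags in replicate 2 and 6.01 to 15.6 M in replicate 1. No member gained or lost H3K27me3 in both replicates between any 2 groups. The H3K36me3 call was lost from NV to 40 d in both replicates in 3 members (4.11%) and gained in 0, against 1.59% lost and 0.924% gained over all nuclear genes. PETE1 had 86.8% and 79.5% of its body covered at NV, 0% in both libraries at 40 d and 68.8% and 71.2% at T10. The other two, also named after their values were seen, were WAK2, a wall-associated kinase (61.3% and 65.8% to 25.8% and 27.3%), and MYC2 (53.7% in both to 40.0% and 41.5%), which lay near the limit of 50%. In 40 members (54.8%) it was called in no library, against 37.0% of all nuclear genes and 69.3% of the persistent fallers.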

How the data were processed

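RNA was ribosome-depleted and sequenced with a strand-specific kit, per the labels' protocols. The deposited RNA table holds normalised read counts per gene, a signal averaged by the authors over 2 replicates per group and not divided by gene length. The submitters' processing notes name TopHat, edgeR, Bowtie2, MACS2 and the build TAIR10. Peaks were called with MACS 2.1.1.20160309 for each ChIP library against the input of its time point, per the file headers, which also give each peak's −log10 q-value and fold enrichment, the authors' own values.

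Each average was split into the whole reads of its 2 libraries (relative tolerance 1e-12). Between 99.95% and 99.98% of the values had 1 solution, and 18766 of 18779 genes, all 73 members among them, were split in every group. The table gives these libraries no replicate number. Reads were fitted with limma 3.58.1 (voom) in R 4.3.3 over all 14 libraries, with Benjamini-Hochberg adjustment over 18766 genes and a threshold of 0.05, and the fit was tested on simulated data. The 4 comparisons tested use, as labelled, none of the groups behind the rule. All groups share 1 estimate of the spread.

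Members and gene lists were chosen with earlier results of these data known. Genes were named by rule: the 12 lowest at 1 d and the 5 highest and 5 lowest r at 40 d (average without cold at least 10), the 5 highest averages without cold, up to 4 called genes per comparison and direction with non-overlapping libraries, the genes at each limit, and members of a list. Other genes were named after their values were seen, among them MBF1C, ROF2, Hop3, SR45a, TIN1, BCS1, CNGC4, PETE1, AAE14 and GATL6. Gene names, roles and positions were matched through a RefSeq gene table. Whether reads of overlapping or antisense genes were counted by strand is not given in the sources used here.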

Additional observations from a re-analysis of the deposited data

How the results depend on the processing

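The rule found 114 genes with a pseudocount of 0.5 and 47 with 2, against 73, and 52 to 84 with 1 library left out. Fitting only the 4 libraries of both groups gave 17 members lower at 10 d than at 1 h, 30 higher and 2 lower at 20 d than at 10 d, 41 higher and 12 lower at T10 than at 20 d, and 6 higher and 2 lower at T10 than at 1 h. Library quality weights gave 25 higher at 20 d than at 10 d, 9 lower at T10 than at 20 d and 9 higher at T10 than at 1 h. Library sizes from nuclear reads gave 1 higher at 10 d than at 1 h, 1 higher at 20 d than at 10 d and 6 lower at T10 than at 20 d, and moved the median of all genes at 10 d against 1 h to 0.11. Members lower at T10 than at 20 d numbered 5 with quantile normalization, 7 with limma trend on log2(value + 1) and 8 with 0.25 added, which also gave 1 higher at 20 d than at 10 d. The cause was not tested, and the shares of all genes called under these settings were not counted. With 1 library left out, 0 to 3 members were higher and 14 to 41 lower at 10 d than at 1 h, and 0 to 1 higher at 20 d than at 10 d. At T10, 14 to 22 were higher and 0 to 1 lower than at 20 d, and 7 to 20 higher and 0 to 17 lower than at 1 h. Of the 80 called pairs of member and comparison none changed sign in these settings. Of them, 49 refits under other settings lost the call and 511 kept it, and 116 with a library left out lost it and 204 kept it. The mean share of members marked by H3K4me3 was 94.3%, and 89.3% where 80% had to be covered. For H3K36me3 it was 30.6%, 62.3% at 20% covered and 4.57% at 80%. The shares of all genes at 20% and 80% covered were not counted. No paired analysis was possible because the columns of the RNA table carry no replicate number.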
